A study of Solanum tuberosum with 2 samples.

Results

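Kirola-like genes encode proteins related to kirola, a major latex protein of kiwifruit, and 6 of them were measured in potato (Solanum tuberosum cv. Desirée) in which explants had been cut or not cut. They were chosen by name, as all genes that the study's annotation of ultrasound-responsive genes calls kirola-like, and make up 6 of the 40430 features of the quantitation. All 6 had reads in both libraries and at least 50 reads over both, so none was lost to a read minimum. The study that made this annotation, of ultrasound, is separate from the one that compared cut and uncut explants. It listed 3 of the genes for material sampled 1 week and 3 for material sampled 4 weeks after ultrasonication. Its samples were not analysed here. The naming rule itself used no value of the cut or uncut library, but the group was picked for description with earlier results of both libraries known.

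The cut library came from wild type single-node segments, each with its leaf, taken from in vitro plantlets of 4 weeks. The uncut library came from intact wild type plantlets of the same age and cultivar. The labels give leaf as the tissue of both, although intact plantlets can carry stem and root, and biological replicates were pooled into 1 library per condition. There was thus 1 sample per group, no difference below has a replicate check, and no p-value was computed. Expression was deposited as the log2 of RPM, the reads of a gene per 1000000 of the total to which its library was scaled. These totals were 33850900 in the cut and 37955500 in the uncut library (rounded to 100), so that 1 read was worth 0.0295 and 0.0263 RPM. The reads of all genes came to 1.77 times these totals, so the totals need not count the same unit as the reads. Intervals in brackets are exact 95% intervals of counting error only (Poisson for a level, Clopper-Pearson for a ratio). A gene was called higher or lower in the cut library when its log2 RPM differed by at least 2 with at least 50 reads over both libraries.

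Major latex proteins belong to the Bet v I family, named after a birch pollen allergen, whose other well-known branch is the pathogenesis-related PR-10 proteins. The members share a fold with a cavity that can hold hydrophobic ligands, and major latex proteins were first described in the latex of opium poppy. In plants they have been linked to defence and to responses to drought and other stresses. The study's annotation gives response to stress and response to biotic stimulus for all 6 genes and a Bet v I/Major latex protein domain for 5, the exception being PGSC0003DMG400023236.

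The 5 copies placed on chromosomes lie on 5 different ones. In SolTub 3.0, the build of the deposited coordinates, PGSC0003DMG400030255 lies on chromosome 3 (6228679 to 6230212, plus strand). PGSC0003DMG400007460 lies on chromosome 4 (765019 to 768197, plus strand), and PGSC0003DMG400026652 on chromosome 8 (18979189 to 18982410, plus strand). PGSC0003DMG400008487 lies close to the start of chromosome 9 (119247 to 126136, plus strand), and PGSC0003DMG400031511 is the copy on chromosome 10 (12658210 to 12659413, minus strand). PGSC0003DMG400023236 is on the sequence numbered 00, which collects scaffolds not placed on a chromosome (21205857 to 21208691, plus strand). Among the 5 placed copies 0 pairs are neighbours, the place of the remaining one relative to them is not known, and 0 other genes of the table overlap any of them.

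The copies parted into a set with more reads and a set with fewer reads in cut material. In the cut library 3 copies were higher, 2 were lower and 1 lay between, so that 5 of 6 (83.3%) passed the size rule, against a background of 15.6% of the 21688 genes with at least 50 reads (8.25% higher and 7.35% lower). Genes with as few reads as these passed it more often: among the 5825 genes with 130 to 898 reads over both libraries, the range of the 6 copies, 20.6% did (9.3% higher and 11.3% lower). The copies also come from the study's lists of ultrasound-responsive genes. Of the 80 other genes listed for 1 week with at least 50 reads, 12.5% were higher and 12.5% lower. Of the 151 listed for 4 weeks, 8.61% were higher and 11.9% lower. The median difference of the 6 copies was 0.74 and that of all genes was -0.33, but with 3 copies on one side and 2 on the other the median describes none of the copies.

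**Figure D1:**
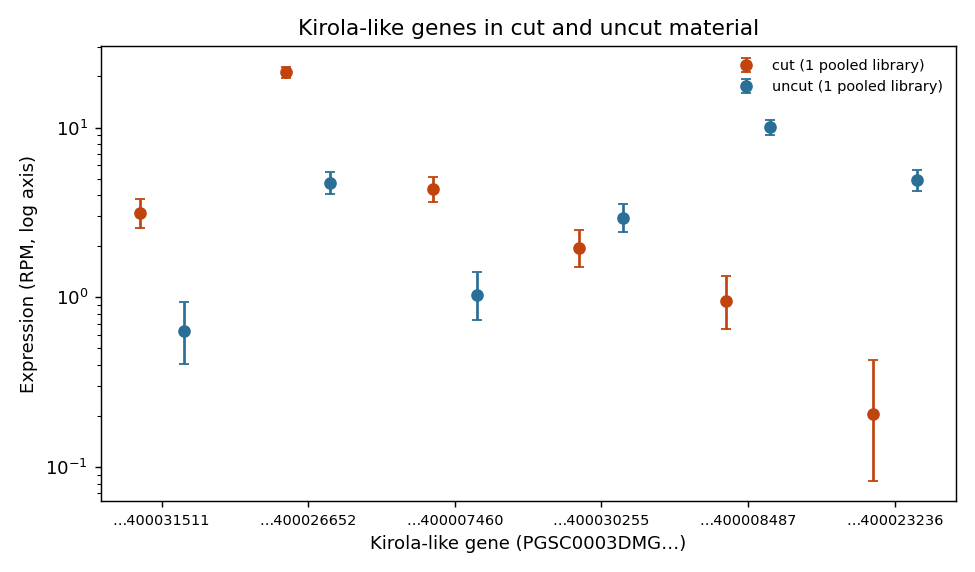
Expression of each kirola-like gene (RPM, log axis) in the cut and the uncut library, 1 pooled library each, with bars for the exact 95% counting interval. The copies are ordered by their difference: the first 3 are higher in cut, and PGSC0003DMG400008487 and PGSC0003DMG400023236 on the right are lower, with 0.945 and 0.207 RPM in cut against 10.01 and 4.90 RPM in uncut material.

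PGSC0003DMG400026652, on chromosome 8, had the most reads of the 6 in cut material and over both libraries. It had 719 reads in the cut library, or 21.2 RPM (19.7 to 22.9), against 179 reads, or 4.72 RPM (4.05 to 5.46), in the uncut library. The log2 difference was 2.17 (1.93 to 2.42), a 4.50-fold higher level in cut explants. Of the genes with reads, 58.8% had fewer reads than this copy in the cut library, against 33.0% in the uncut library.

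PGSC0003DMG400007460, on chromosome 4, was also higher in cut explants. It had 147 reads, or 4.34 RPM (3.67 to 5.10), in the cut library, against 39 reads, or 1.03 RPM (0.731 to 1.40), in the uncut library. Its difference of 2.08 (1.56 to 2.63) lay just past the limit of 2, and its interval ran to both sides of it.

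PGSC0003DMG400031511, on chromosome 10, was the last copy higher in cut explants and had the fewest reads over both libraries. It had 106 reads, or 3.13 RPM (2.56 to 3.79), in the cut and 24 reads, or 0.632 RPM (0.405 to 0.941), in the uncut library. The difference was 2.31 (1.66 to 3.01), or 4.95-fold. The intervals of these 3 differences overlap, and all 3 ran to both sides of the limit of 2. In none of the 3 copies did the intervals of the 2 levels meet. On a log2(RPM + 1) scale, where differences at few reads come out smaller, the 3 differences were 1.40, 1.96 and 1.34 for the copies on chromosomes 4, 8 and 10, all under the limit of 2.

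The lower copies moved further than the higher ones. PGSC0003DMG400023236, on the unplaced sequence, had 7 reads in the cut library, or 0.207 RPM (0.0831 to 0.426), against 186 reads, or 4.90 RPM (4.22 to 5.66), in the uncut library. Its difference was -4.57 (-5.90 to -3.50), a level 23.7-fold higher in uncut plantlets, and 120 of the 21688 genes (0.553%) had a lower one. In the cut library 8.44% of the genes with reads had fewer reads than this copy, and in the uncut library 33.4% did.

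PGSC0003DMG400008487, on chromosome 9, had the most reads of the 6 in intact plantlets. It had 32 reads in the cut library, or 0.945 RPM (0.647 to 1.33), against 380 reads, or 10.01 RPM (9.03 to 11.1), in the uncut library. Its difference was -3.40 (-3.97 to -2.88), or 10.6-fold, and 1.54% of genes had a lower one. Both lower copies stayed past the limit of 2 on the log2(RPM + 1) scale.

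PGSC0003DMG400030255, on chromosome 3, lay between the limits. It had 66 reads, or 1.95 RPM (1.51 to 2.48), in the cut and 112 reads, or 2.95 RPM (2.43 to 3.55), in the uncut library. The difference was -0.60 (-1.06 to -0.15), which is -0.26 when taken relative to the median of all genes. The intervals of its 2 levels overlapped.

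**Figure D2:**
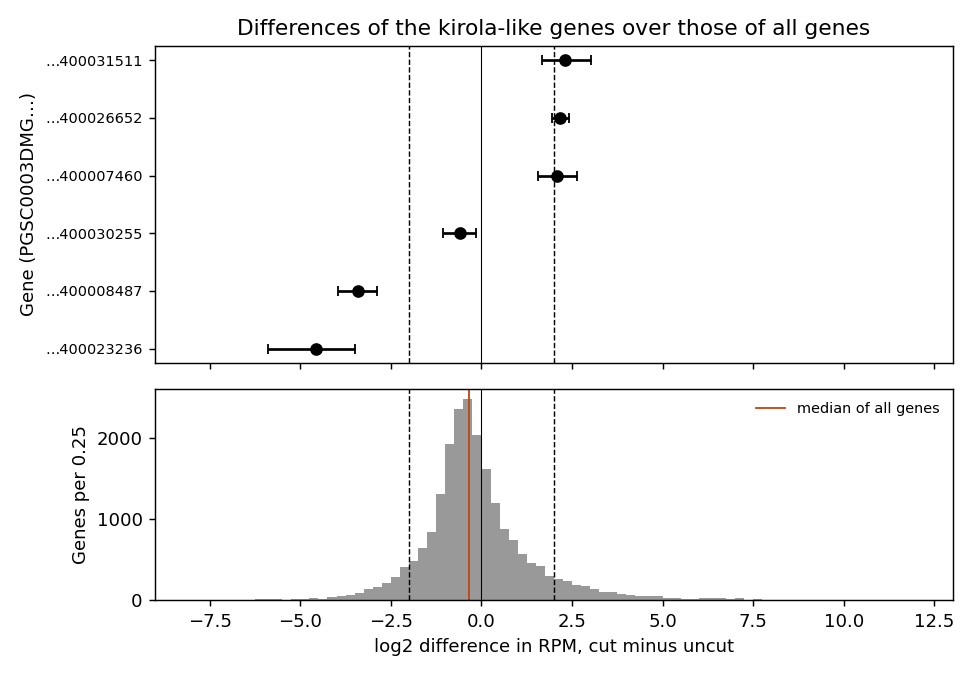
Top, log2 difference in RPM (cut minus uncut) of each kirola-like gene with its exact 95% counting interval. Bottom, the same difference for all 21688 genes with at least 50 reads, in bins of 0.25. Dashed lines mark the limits of -2 and 2. The 3 higher copies sit together between 2.08 and 2.31, and the lower copies at -3.40 and -4.57.

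Summed over the copies, kirola-like expression differed less between the libraries than the parts of the single copies in it. The 6 genes together had 1077 reads in the cut library, or 31.8 RPM (29.9 to 33.8), against 920 reads, or 24.2 RPM (22.7 to 25.9), in the uncut library, a difference of 0.39 (0.26 to 0.52). The 3 higher copies supplied 90.3% of these reads in cut explants, against 26.3% in intact plantlets. The 2 lower copies supplied 3.62% in cut explants, against 61.5% in intact plantlets. The copy on chromosome 8 alone held 66.8% (exact binomial interval 63.9 to 69.6) of the reads in the cut library, against 19.5% (16.9 to 22.2) in the uncut library. The copy on chromosome 9 held 2.97% (2.04 to 4.17) in the cut library, against 41.3% (38.1 to 44.6) in the uncut library. The direction of the sum rested on the copy on chromosome 8: without it, a comparison added once the values were known, the other 5 genes had 358 reads in the cut and 741 in the uncut library, a difference of -0.88 (-1.07 to -0.70).

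**Figure D3:**
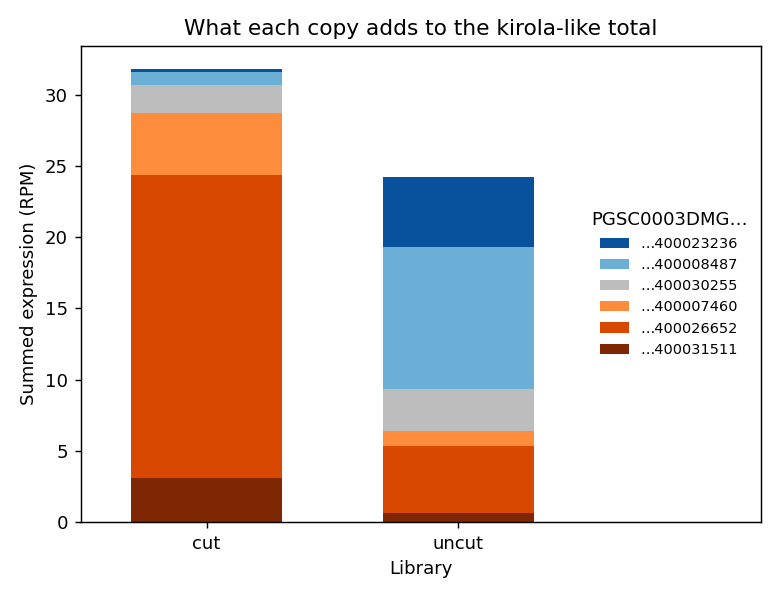
Summed expression of the 6 kirola-like genes (RPM) in the cut and the uncut library, with the part of each copy stacked in its own shade. The totals are 31.8 RPM in cut and 24.2 RPM in uncut material. PGSC0003DMG400026652 fills most of the cut bar, and PGSC0003DMG400008487 is the largest piece of the uncut bar.

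RPM values are not corrected for gene length, so levels of different copies were compared per kilobase of the deposited gene span. That span includes introns, while only exonic reads were counted, so the order also depends on intron length. In cut explants the order was chromosome 8 with 6.59 RPM per kb, chromosome 10 with 2.60, chromosome 4 with 1.37, chromosome 3 with 1.27, chromosome 9 with 0.137 and the unplaced copy with 0.0729. Of neighbours in that order, the copies on chromosomes 4 and 3 overlapped in their intervals, and so did those on chromosome 9 and the unplaced sequence, while the other neighbours did not. In intact plantlets the order ran from chromosome 3 with 1.92 RPM per kb and the unplaced copy with 1.73 to chromosome 8 with 1.46, chromosome 9 with 1.45, chromosome 10 with 0.525 and chromosome 4 with 0.323. There the first 4 each overlapped with the next, and the last 2 with each other, so that on these spans only the step between chromosomes 9 and 10 exceeded counting error. The copies on chromosomes 10 and 4, last in intact plantlets, were thus next after that on chromosome 8 in cut explants, though the copy on chromosome 4 led that on chromosome 3 only within counting error. The place of the copy on chromosome 9 depends on its span, 6890 bases as deposited but 1346 bases for the RefSeq gene of its best-matching protein. On the RefSeq span, a comparison added later, its level was 0.702 RPM per kb (0.480 to 0.991) in cut explants, against 7.44 (6.71 to 8.22) in intact plantlets. The reads were still those of the whole deposited model, so these 2 levels are too high if some reads fell outside the RefSeq gene. That was not tested. If none did, the copy on chromosome 9 would be first in intact plantlets, beyond counting error of the copy on chromosome 3. The copy on chromosome 3 had 1.84 (1.52 to 2.22) on its own RefSeq span. In cut explants the copy on chromosome 9 would stay between the copy on chromosome 3 and the unplaced one. It would overlap with chromosome 3 and no longer with the unplaced copy. The spans of the other copies with a RefSeq match were close in both tables.

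Genes beside the copies went both ways. Among the 5 nearest genes on each side of each copy, 60 in all, 30 had no reads in either library and 21 had at least 50 reads. Of these 21 genes, 1 was higher and 4 were lower in the cut library, or 23.8% past the size rule, against 15.6% of all genes. The single higher neighbour, PGSC0003DMG400023235, lies 5.89 kb after the unplaced copy, on a sequence whose joined scaffolds need not be neighbours in the genome. It had 799 reads in the cut and 132 in the uncut library, a difference of 2.76, while the kirola-like gene beside it had the largest fall of the 6. Another neighbour of the same copy, 15.2 kb after it, was lower, with 168 reads in the cut and 861 in the uncut library (-2.19). Next to the copy on chromosome 4, which was higher, 2 of the 5 neighbours with enough reads were lower, among them PGSC0003DMG400007475 with 15 reads in the cut and 284 in the uncut library (-4.08). On chromosome 3, PGSC0003DMG400030259, 71.7 kb after the copy, had 456 reads in the cut and 5160 in the uncut library (-3.34). The copy on chromosome 9 stood among genes that all had reads: 8 of its 10 neighbours had at least 50 reads, 0 of these passed the rule, and their median difference was -0.71. The copies on chromosomes 8 and 10 had 8 and 7 neighbours without reads, and 1 neighbour each with at least 50 reads.

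**Figure D4:**
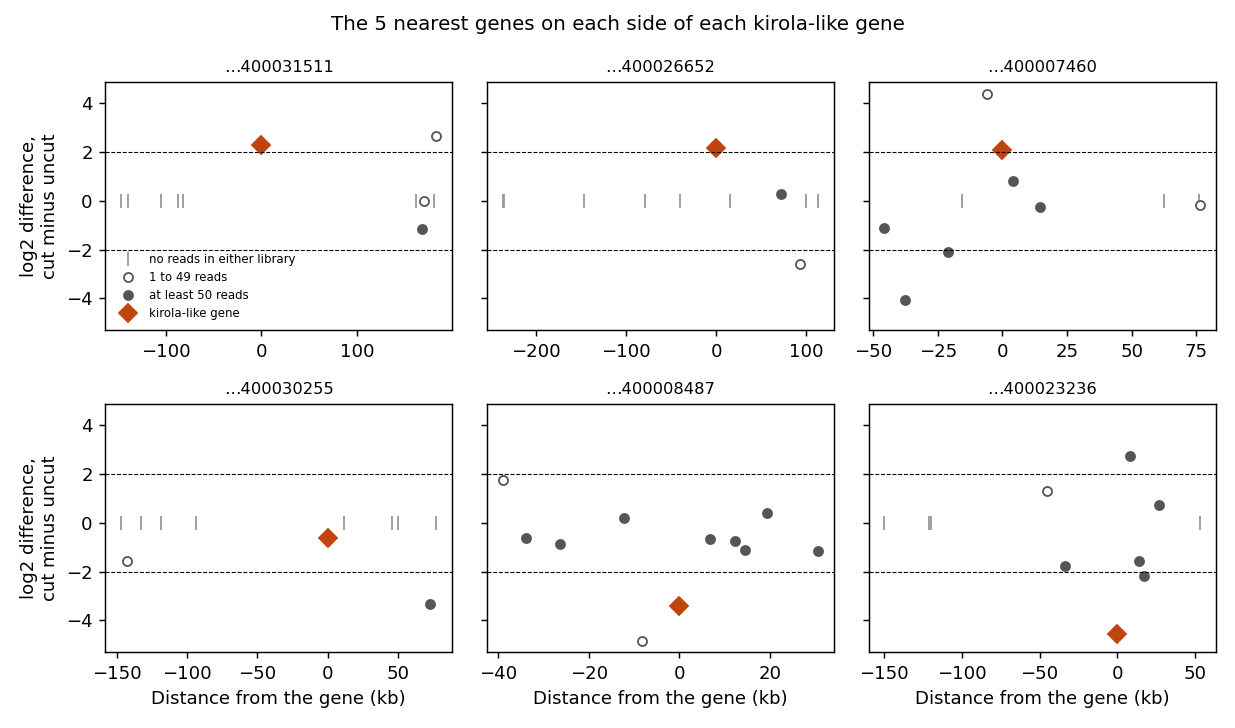
Log2 difference (cut minus uncut) of the 5 nearest genes on each side of each kirola-like gene, against the distance in kb between gene midpoints. Diamonds are the kirola-like genes, filled circles are neighbours with at least 50 reads, open circles are neighbours with fewer, and ticks at 0 are genes with no reads. Dashed lines mark -2 and 2. Around the chromosome 9 copy (PGSC0003DMG400008487), all neighbours with at least 50 reads lie between the lines.

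The study's annotation holds 2 other genes with the Bet v I domain, both named for STH-2, a potato PR-10 protein. They sit 19.6 kb apart on chromosome 9, far from the kirola-like copy of that chromosome. The STH-2-like gene (PGSC0003DMG402001494) had 1037 reads in the cut and 956 in the uncut library, a difference of 0.28 (0.15 to 0.41). The STH-2 gene (PGSC0003DMG400001550) had 1 read in the cut and 15 in the uncut library, too few for the rule, with an interval of -9.14 to -1.04.

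A list of 11 other defence genes of the same annotation also went in both directions. Of the 10 with at least 50 reads, 3 were higher and 1 was lower, against 8.25% and 7.35% of all genes, with a median of 0.56 against -0.33 over all genes, and the other gene, a PR-1-like one, had no reads. The endochitinase EP3-like gene (PGSC0003DMG400025063), of a family of enzymes that cut chitin, had 1342 reads in the cut and 27 in the uncut library (difference 5.80). The acidic mammalian chitinase-like gene (PGSC0003DMG400011842) had 3104 reads in the cut and 189 in the uncut library (a difference of 4.20), and the gene of pathogenesis-related protein PR-1 (PGSC0003DMG400043108) had 1884 reads in the cut and 520 in the uncut library (2.02). The defensin-like gene (PGSC0003DMG400024205), of a family of small antimicrobial peptides, had 12 reads in the cut and 238 in the uncut library (-4.14). These genes had been selected by the study for their response to ultrasound, so their counts describe named genes and not defence genes at large.

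Among lists of organ markers, 3 of 4 root-linked and 1 of 8 leaf genes were lower in the cut library. Both lists came from the annotation of ultrasound-responsive genes, so their counts describe named genes and not root or leaf genes at large. Whether each gene marks its organ in this material was not tested. All 4 genes of a list linked to the Casparian strip, the barrier of the root endodermis, had reads in both libraries, and 3 of them were lower in the cut library, against 7.35% of all genes, with a median of -2.95 and a summed level of 92.6 RPM in cut against 470 RPM in uncut material. The largest fall there was that of CASP-like protein 1 (PGSC0003DMG400022659), with 11 reads in the cut and 915 in the uncut library (-6.21), while CASP-like protein 4D1 had 1743 reads in the cut and 1742 in the uncut library. All 8 leaf genes, of chlorophyll a-b binding proteins and carbonic anhydrase, were read in both libraries, at 191 RPM in cut and 270 RPM in uncut material. By the rule 1 of them was lower and 0 were higher, against 7.35% and 8.25% of all genes. Their median was -0.81, against -0.33 over all genes, and 6 of the 8 lay below the median of all genes. Whether a smaller share of root in the cut material had a part in the falls of the kirola-like copies was not tested, and since cutting and organ composition go together in this design, their parts cannot be told apart. In pooled material such as this, fewer cells of a type and less RNA per cell cannot be told apart either.

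**Figure D5:**
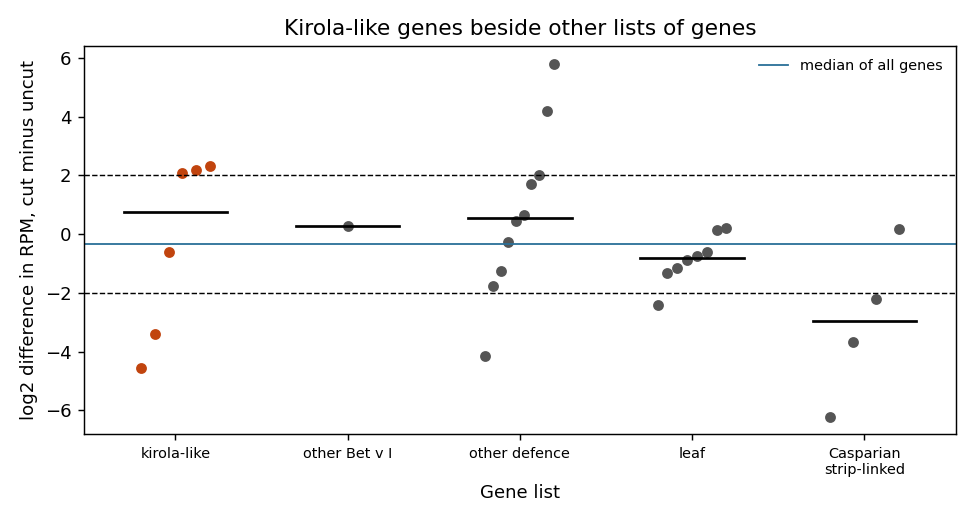
Log2 difference in RPM (cut minus uncut) of the kirola-like genes beside 4 other lists, for genes with at least 50 reads. Points are genes, black bars are list medians, the blue line is the median of all genes at -0.33, and dashed lines mark -2 and 2. The kirola-like genes and the other defence genes lie on both sides, and 3 of the 4 Casparian strip-linked genes lie under -2.

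Each copy was compared with 338 other genes with at least 50 reads, all named in the annotation of ultrasound-responsive genes. The one nearest to the copy over its 2 log2 values was taken as most alike, by Euclidean distance and over 2 libraries only. For the copies on chromosomes 4 and 10 the nearest were 2 genes named non-specific lipid-transfer protein 2-like, PGSC0003DMG402031237 (distance 0.25) and PGSC0003DMG401031237 (0.35). The nearest gene to the copy on chromosome 8 was a LysM domain-containing protein gene (PGSC0003DMG400014303, 0.13), with 716 reads in the cut and 164 in the uncut library. The copy on chromosome 9 was nearest to a B-box-type zinc finger gene (PGSC0003DMG400025970, 0.24), with 35 reads in the cut and 330 in the uncut library. The copy on chromosome 3 was nearest to a gene of an uncharacterized protein (PGSC0003DMG400010113, 0.20), with 63 reads in the cut and 98 in the uncut library. The unplaced copy had the largest distance to its nearest gene, 0.75. That gene, a putative germin-like protein 2-1 gene (PGSC0003DMG400013099), had 11 reads in the cut and 143 in the uncut library. With 7 reads in the cut library, the log2 value of the unplaced copy had a counting interval of -3.59 to -1.23, so this distance is imprecise.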

How the data were processed

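Both libraries were poly(A)-enriched, strand-specific, paired-end mRNA libraries. The paper says that the cutting study used nearly the same methods: the authors trimmed with Trim Galore 0.5.0, used HISAT2 2.1.0 to map to SolTub 3.0, retained unique alignments only, had SeqMonk sum the exonic reads of a gene, divided by the library total and deposited log2 RPM. Unique alignment loses reads of near-identical copies, so levels of a gene family can be too low. The strand setting of the counting is not given in the sources used here.

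Whole reads were computed from the steps of the low values: 100% of 16642 values in the cut and of 14626 in the uncut library, those under 1000 reads, were whole within 0.05 read. The reads of all genes (60081924 in cut, 67314360 in uncut) came to 1.77 times the totals used for scaling, and even numbers made up 46.9% and 45.9% of the counts under 40. Should both mates have been counted, intervals are too narrow. The members and lists were chosen with earlier results of these data known. The genes named are the 6 copies, the other Bet v I genes, the defence genes past the size rule, the nearest named genes, and neighbours past the rule (at most 2 per direction); the CASP-like genes were named after their values were seen. For 5 of the 6 copies, the protein given as best match was found in the RefSeq gene table of SolTub 3.0. Protein and promoter sequences were not used here. The procedure was tested on simulated reads. Software was Python 3.11.15 with numpy 2.4.6 and scipy 1.17.1, pandas 2.3.3 for tables, and matplotlib 3.10.9.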

Additional observations from a re-analysis of the deposited data

How the results depend on the processing

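No replicate could be left out of conditions with 1 library. No paired analysis was possible because the labels number no replicates and no test was run. The counts of 3 higher and 2 lower copies were the same under the 3 other scalings, with a minimum of 10 reads, with none, with a difference of at least 1, and when the counting interval had to lie beyond 2-fold. They were 0 and 2 on the log2(RPM + 1) scale, 2 and 2 on the log2(RPM + 0.1) scale, where the copy on chromosome 4 was at 1.98, 0 and 2 for a difference of at least 3, and 1 and 1 with a minimum of 200 reads, which leaves only the copies on chromosomes 8 and 9 and a median of -0.62. Of all genes with at least 50 reads, 2190 were higher and 1122 lower under the median ratio, and 1978 and 1296 under the upper quartile. Scaling by the sum of reads on genes gave 1788 and 1598, against 1789 and 1595 with the main scaling. Shares of all genes were not computed for the other read minimums, limits and scales, so those counts stand without a background. Scaling by the median ratio moved all genes by 0.32 and by the upper quartile by 0.17, and the summed difference then was 0.71 and 0.57. Without the copy on chromosome 8 it turned to -0.88. On RefSeq gene spans, of the levels per kilobase of the 5 copies with a RefSeq match only that of the copy on chromosome 9 left its counting interval, at 0.702 in cut and 7.44 in uncut material. The reads there were those of the whole deposited model, so both levels are too high if some fell outside the RefSeq gene. With 3 genes on each side, 1 neighbour was higher and 2 were lower, of 14 with at least 50 reads. With 10 genes on each side, 5 were higher and 6 lower, of 47. Over all genes with at least 50 reads, 8.25% were higher and 7.35% lower. If every 2 reads were 1 pair, an alternative added after seeing the data, the interval of the copy on chromosome 3 would be -1.26 to 0.05 and that of the unplaced copy -6.65 to -3.08. Depth limits the unplaced copy most, with 7 reads in the cut library.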

Other observations

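The direction went with the time point at which the study had listed each copy. The 3 copies listed for 1 week were the 3 that were higher in the cut library, and of the 3 listed for 4 weeks 2 were lower and none was higher. Among the other genes of those lists, of 80 listed for 1 week with at least 50 reads, 10 were higher and 10 lower (12.5% each, median 0.05). Of 151 listed for 4 weeks, 13 were higher and 18 lower (8.61% and 11.9%, median -0.22). Over all genes with at least 50 reads, 8.25% were higher and 7.35% lower (median -0.33). This pattern was noticed after the values were seen and was not tested.

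The genes directly before 2 of the copies had reads in 1 library only, in the same direction as the copy, though under the minimum of 50 reads. Other neighbours with reads in 1 library only went against their copy: 1 beside the higher copy on chromosome 8 had 0 reads in the cut and 6 in the uncut library, and 1 beside the lower unplaced copy had 2 reads in the cut and 0 in the uncut library. Beside the copy on chromosome 3, which passed no limit, 1 gene had 0 reads in the cut and 3 in the uncut library. The genes named here were picked after their values were seen, and the sources used here do not name them. PGSC0003DMG400007459, 2.09 kb before the higher copy on chromosome 4, had 17 reads in the cut and 0 in the uncut library. PGSC0003DMG400008486, 4.12 kb before the lower copy on chromosome 9, had 0 reads in the cut and 29 in the uncut library. A count of 0 allows up to 0.0886 RPM in the cut and 0.0790 RPM in the uncut library, taken at 3 reads.

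The deposited span of the copy on chromosome 9 was 6890 bases, while the RefSeq gene of its best-matching protein (LOC102582624) spans 1346 bases. For the 4 other copies with a RefSeq match the spans were close, at 3179 and 3197 bases on chromosome 4, 3222 and 3176 on chromosome 8, 1204 and 1129 on chromosome 10, and 1534 and 1601 on chromosome 3 (deposited span first). Whether the model on chromosome 9 joins more than 1 gene was not tested.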
